A study of Homo sapiens with 9 samples.

Results

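The nuclear genes of oxidative phosphorylation were followed across 9 libraries of HEK293T cells, an epithelial line from human embryonic kidney that is readily transfected. Members were taken by symbol: names beginning NDUFA, NDUFB, NDUFC, NDUFS or NDUFV with a number, SDHA to SDHD, and names beginning UQCR, COX4 to COX8 or ATP5. These patterns matched 85 of the 17083 genes in the table, of which 39 were placed in complex I, 4 in complex II, 9 in complex III, 13 in complex IV and 20 in complex V. All cells were labelled wild type and all carried a FLAG construct. In the PLK2 group (3 libraries) it drove overexpression of the kinase PLK2, in the PLK2(D223N) group (3 libraries) that of PLK2 with a substitution in its kinase domain, and in the Vector group (3 libraries) it was empty. The submitters name the libraries of a group biological replicates. The labels state neither the time after transfection nor a plasmid dose, kinase activity was not among the measurements, and every group rests on the same cell line. The comparisons asked which transcripts changed with PLK2, with PLK2(D223N), and between both forms.

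Oxidative phosphorylation takes place in the inner mitochondrial membrane. Complex I (NADH dehydrogenase) and complex II (succinate dehydrogenase) pass electrons to ubiquinone, complex III hands them to cytochrome c, complex IV (cytochrome c oxidase) reduces oxygen, and complex V (ATP synthase) uses the proton gradient built on the way to make ATP. Most subunits are encoded in the nucleus and imported, while a few core subunits are encoded in mitochondrial DNA. Those mitochondrial genes, and COX4I2, COX6A2, COX7A1 and COX7B2, were not analysed here.

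Library totals ran from 14288165 to 16510186 estimated counts. PLK2 itself averaged 23744 ± 2384 CPM in PLK2 libraries and 12358 ± 1650 CPM in PLK2(D223N) libraries, against 3.42 ± 0.637 CPM in Vector libraries (SD, n = 3 each), so both forms were overexpressed at unequal levels. CPM values here are counts relative to the TMM-scaled library size and set samples side by side for a gene, and TPM, which also divides by transcript length, is used to set genes side by side. The Vector libraries stood furthest apart: the chi-square per gene was 17.7 between Vector replicates 1 and 2 and 10.8 between replicates 1 and 3, against 1.63 to 2.81 for the 6 pairs within the other groups and 2.68 for Vector replicates 2 and 3. Of 5 epithelial markers 4 were in the table and summed to 67.3 to 69.1 CPM in PLK2, 65.1 to 68.1 CPM in PLK2(D223N) and 65.2 to 75.2 CPM in Vector libraries, most of it from the keratins KRT18 (up to 48.1 CPM) and KRT8 and little from EPCAM and CDH1. Of 7 immune markers 3 were in the table, with sums of 2.03 to 2.19, 0.676 to 1.67 and 2.2 to 2.22 CPM in the same order, mostly from ITGAM. Of 5 fibroblast markers 4 were in the table, with sums of 13.1 to 14.9, 13.8 to 15 and 13.4 to 13.8 CPM and COL1A1 the highest, at up to 11 CPM.

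Transcripts of the 5 complexes were abundant and their levels were close in the 3 groups. Per length, the median member of complex V stood at 439 TPM in PLK2 libraries, 436 TPM in PLK2(D223N) libraries and 450 TPM in Vector libraries. The medians of complex IV were 375, 363 and 387 TPM in the same order of groups. Complex II had medians of 250 TPM with PLK2, 254 TPM with PLK2(D223N) and 258 TPM with Vector. Complexes I and III lay lower, at 158 and 107 TPM with PLK2, 155 and 113 TPM with PLK2(D223N), and 164 and 111 TPM with Vector.

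In complex I, NDUFS5, an accessory subunit on the intermembrane-space side, had the highest level per length, at 1089 ± 27.6 TPM in PLK2, 1069 ± 7.42 TPM in PLK2(D223N) and 1141 ± 16.2 TPM in Vector libraries (SD, n = 3 each). The lowest tested entry of complex I was the readthrough transcript NDUFC2-KCTD14, at 1.93 ± 0.526, 2.42 ± 0.539 and 2.15 ± 0.188 TPM in the same order. SDHD, a membrane anchor, was the highest of complex II at 281 ± 4.24 TPM with PLK2, 275 ± 8.1 TPM with PLK2(D223N) and 290 ± 3.32 TPM with Vector, and SDHA, the flavoprotein, the lowest at 124 ± 2.12, 136 ± 1.84 and 134 ± 2.01 TPM. On the TPM scale the span was thus narrow in complex II and wide elsewhere. In complex III the hinge protein UQCRH reached 1593 ± 55.5 TPM in PLK2, 1593 ± 27.5 TPM in PLK2(D223N) and 1700 ± 31.2 TPM in Vector libraries, whereas UQCRB, the ubiquinone-binding subunit, was at 38.6 ± 0.359, 38.7 ± 0.261 and 34.9 ± 3.53 TPM. Among complex IV genes COX6A1 was highest, at 1173 ± 34.4 TPM in PLK2, 1175 ± 55.4 TPM in PLK2(D223N) and 1313 ± 75.9 TPM in Vector libraries. COX7B was its lowest tested gene, at 88.5 ± 1.09, 90.8 ± 2.07 and 83.1 ± 6.97 TPM. In complex V the membrane subunits ATP5ME and ATP5MF headed the order, and the catalytic subunit ATP5F1B followed at 1170 ± 10.3 TPM with PLK2, 1186 ± 27.4 TPM with PLK2(D223N) and 1250 ± 54.6 TPM with Vector. ATP5ME was at 1415 ± 78.1, 1418 ± 48.8 and 1447 ± 131 TPM and ATP5MF at 1412 ± 70.4, 1344 ± 64.8 and 1494 ± 38.2 TPM, which overlap within their SDs. TPM depends heavily on the length used, above all for very short transcripts, so these orders are those of the deposited TPM only. ATP5ME had 1059 counts summed over the PLK2 libraries, fewer than the 2919 of ATP5F1E, which was listed at only 33 ± 1.71 TPM. By CPM in PLK2 libraries UQCRB averaged 179, against 201 for UQCRH and 47.1 for UQCRQ. COX7B averaged 107 CPM there, against 55.9 CPM for COX5B. UQCRB and COX7B were thus not the lowest tested genes of their complexes by CPM.

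**Figure D1:**
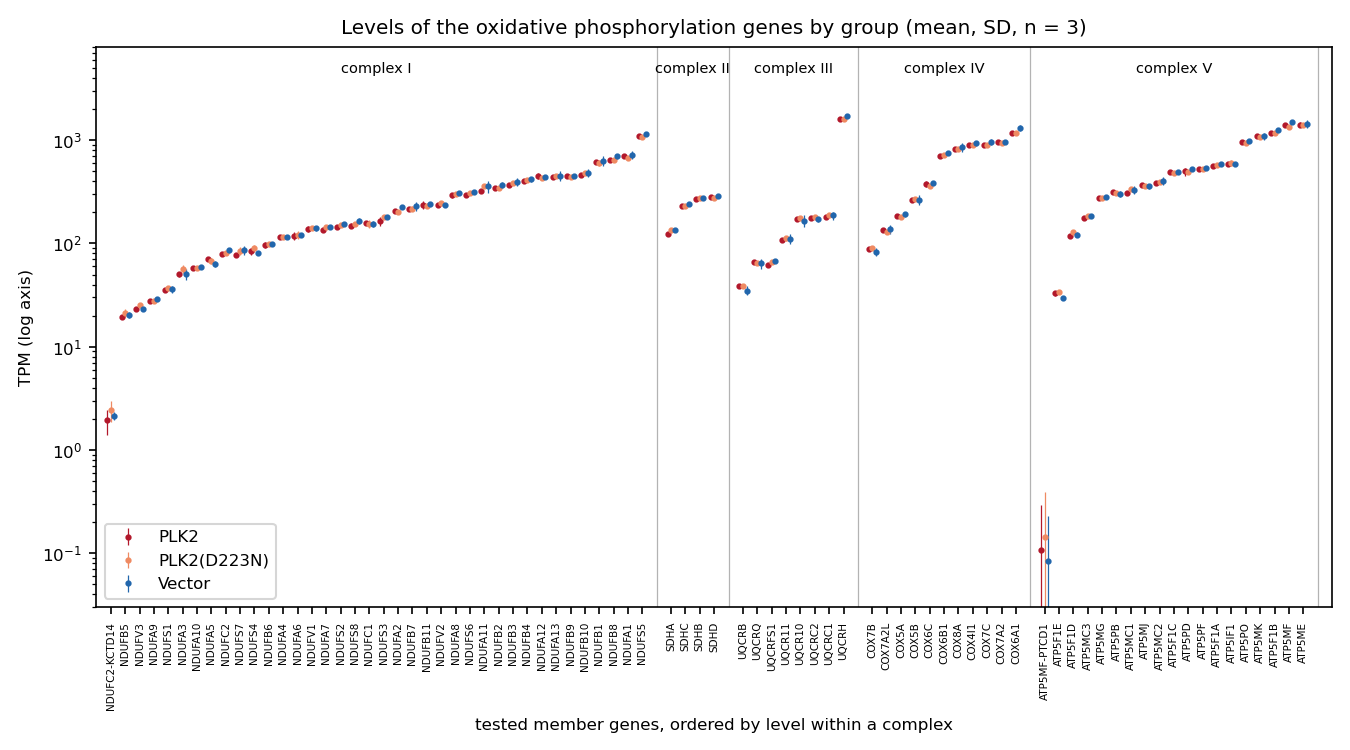
TPM on a log axis for the 80 tested member genes, ordered within each complex; points are group means and bars SDs over 3 libraries, for PLK2, PLK2(D223N) and Vector from left to right. Apart from ATP5MF-PTCD1, group means run from 1.93 TPM (NDUFC2-KCTD14, PLK2) to 1700 TPM (UQCRH, Vector) and the 3 groups sit close together; the bars of ATP5MF-PTCD1 run below the axis because its SD exceeds its mean.

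Paralogues and isoforms were unequal in level. The c ring of ATP synthase is encoded by ATP5MC1, ATP5MC2 and ATP5MC3, whose mature proteins are identical. ATP5MC3 gave 65.7 ± 0.541% of their summed CPM in PLK2 libraries, 65.3 ± 0.626% in PLK2(D223N) libraries and 66.5 ± 1.17% in Vector libraries (SD, n = 3 each). In the deposited TPM the order changed. ATP5MC2 gave 44.3 ± 0.208% of the summed TPM in PLK2, 43.2 ± 0.9% in PLK2(D223N) and 43.8 ± 0.463% in Vector libraries, and ATP5MC3 20.2 ± 0.426, 20 ± 0.524 and 20.2 ± 0.677%. That order rests on the lengths used for the TPM. Median GENCODE 29 transcript lengths were 568.5 bases for ATP5MC1, 745 for ATP5MC2 and 842 for ATP5MC3, with which ATP5MC3 would stay the highest. UQCRH held 99.9% of the summed TPM of UQCRH and its close relative UQCRHL in each group. COX4I1, COX6A1, COX6B1, COX7A2, COX7A2L, COX7B and COX8A were the tested members of the isoform sets of complex IV, while the testis isoform COX6B2 and COX8C were at or near 0.

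Of the 85 members, 80 passed the filter on low counts. The 5 that did not were NDUFA4L2, UQCRHL, COX6B2, COX8C and ATP5MGL. NDUFA4L2, a paralogue of NDUFA4 known as a hypoxia-induced gene, had 1, 0 and 1 counts in PLK2 libraries, 4, 5 and 1 counts in PLK2(D223N) libraries and 1 count in each Vector library. UQCRHL had 11 counts summed over the PLK2 libraries, 8 over PLK2(D223N) and 12 over Vector. COX6B2 had summed counts of 9, 11 and 11 in the same order, ATP5MGL of 2, 4 and 2, and COX8C a single count, in PLK2(D223N) replicate 3. These counts lie near the floor of 3 counts per library that a count of 0 allows, so no fold is given for them. The readthrough entry ATP5MF-PTCD1 passed the filter but had all of its 15 counts in PLK2 replicate 2, all 19 in PLK2(D223N) replicate 1 and all 13 in Vector replicate 1, a split that estimated counts can give between overlapping entries, and its fitted fold is not interpreted.

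No member passed the test in any of the 3 comparisons (edgeR quasi-likelihood test, two-sided, Benjamini-Hochberg adjustment over 12924 genes, threshold 0.05). In PLK2 against Vector 0 of 80 members were called, where 0.511% of all genes were (66 genes, 62 of them higher). In PLK2(D223N) against Vector 0 of 80 were called, where 0.0232% of all genes were. In PLK2 against PLK2(D223N) 0 of 80 were called, where 0.162% of all genes were. With backgrounds this low, no call among 80 genes is what the share over all genes gives, and the count says nothing particular to the members. At an unadjusted p below 0.05 there were 5 members in PLK2 against Vector (2 higher and 3 lower; 16.4% of all genes), 5 in PLK2(D223N) against Vector (1 higher and 4 lower; 8.53%) and 0 in PLK2 against PLK2(D223N) (6.04%). The DESeq2 Wald test also called 0 members in each comparison. In bulk RNA, fewer cells of a kind and less RNA per cell cannot be told apart.

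The estimated differences were small and their intervals narrow. In PLK2 against Vector the median log2 fold change of the 80 members was -0.02, with 30 above 0 and 50 below, beside -0.00 over all genes tested. The median was -0.03 in PLK2(D223N) against Vector (24 above 0 and 56 below), beside 0.01 over all genes. Between PLK2 and PLK2(D223N) it was 0.02 (53 above 0 and 27 below), beside -0.00. The fit on log2(TPM + 1) used its own filter on mean TPM, which kept 11938 genes. Its 80 members include UQCRHL and leave out ATP5MF-PTCD1. On that scale the members' split was 17 above 0 and 63 below in PLK2 against Vector (median -0.05, beside -0.01 over all genes), and 30 above and 50 below in PLK2(D223N) against Vector (-0.02, beside 0.05). In PLK2 against PLK2(D223N) the split turned round, with 29 above and 51 below (-0.02, beside -0.05). The median SE of a member was 0.07 in each comparison, beside 0.08 over all genes tested. For 76, 74 and 77 of the 80 members in these comparisons the 95% interval lay wholly within 1.25-fold in either direction, beside 61.1, 66.2 and 69.6% of all genes tested. Intervals widen at low counts, and the members were not set against genes of like level. Within 1.5-fold lay the intervals of 78, 79 and 78 members, and the exceptions were the readthrough entries NDUFC2-KCTD14 and ATP5MF-PTCD1. The comparisons against Vector share the same 3 Vector libraries, and each PLK2 group enters 2 comparisons, so their directions are not independent.

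**Figure D2:**
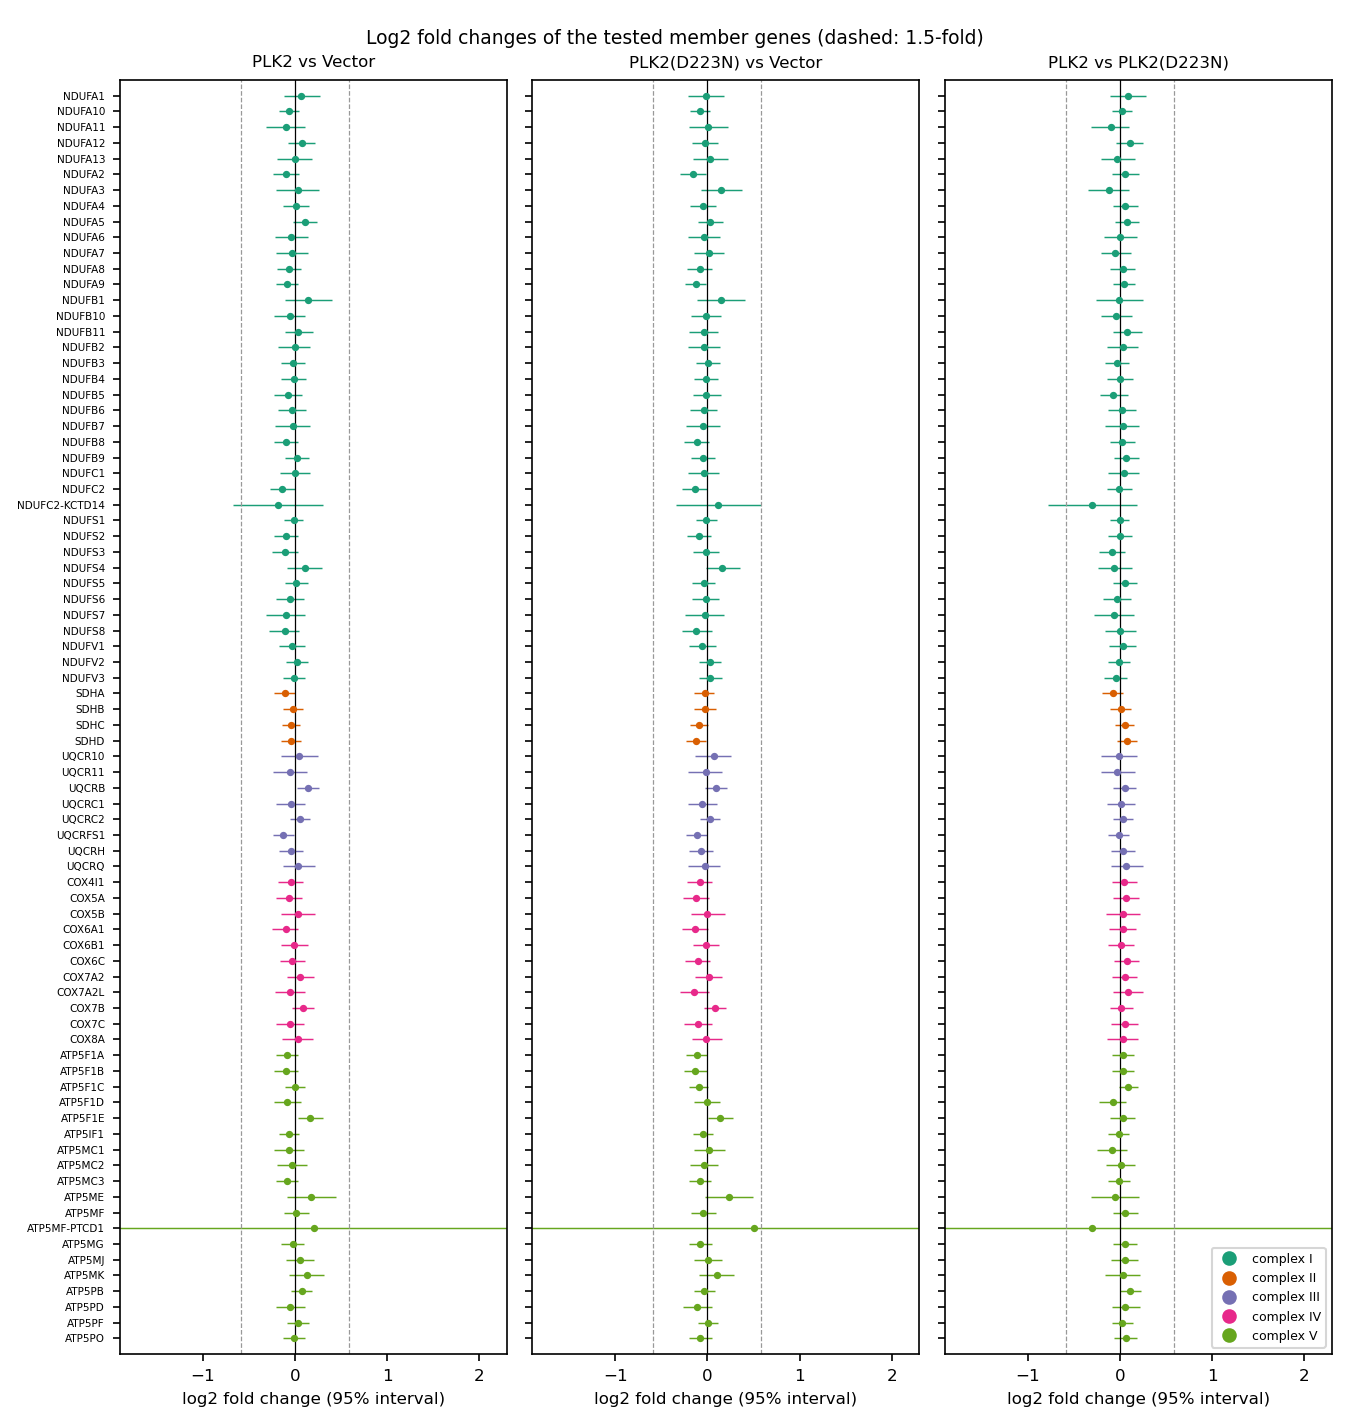
Log2 fold change of each tested member (points) with its 95% interval (lines), 1 panel per comparison, coloured by complex; dashed lines mark 1.5-fold. Points lie close to 0, with medians of -0.02, -0.03 and 0.02 from left to right; the intervals of ATP5MF-PTCD1 run past the axis.

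The complexes were alike in this. Summed over its members, complex I stood at 2475, 2511 and 2407 CPM in PLK2 libraries, at 2447, 2449 and 2430 CPM in PLK2(D223N) libraries and at 2674, 2341 and 2514 CPM in Vector libraries. For complex II the sums were 636, 656 and 632 CPM with PLK2, 624, 631 and 648 CPM with PLK2(D223N), and 688, 645 and 667 CPM with Vector. In both, a Vector library was the highest of the 9, and PLK2 and Vector values overlapped. Complex III summed to 936, 967 and 908 CPM in PLK2, to 926, 916 and 925 CPM in PLK2(D223N) and to 975, 868 and 947 CPM in Vector libraries. Complex IV gave 1183, 1220 and 1145 CPM in PLK2, 1158, 1129 and 1154 CPM in PLK2(D223N) and 1314, 1099 and 1186 CPM in Vector libraries. In these complexes Vector replicate 1 was the highest library and Vector replicate 2 the lowest, with both PLK2 groups in between. For complex V the sums were 3469, 3588 and 3369 CPM with PLK2, 3352, 3365 and 3417 CPM with PLK2(D223N), and 3783, 3383 and 3526 CPM with Vector, which overlap as well. All 85 members together made up between 0.837 and 0.961% of the counts of a library.

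**Figure D3:**
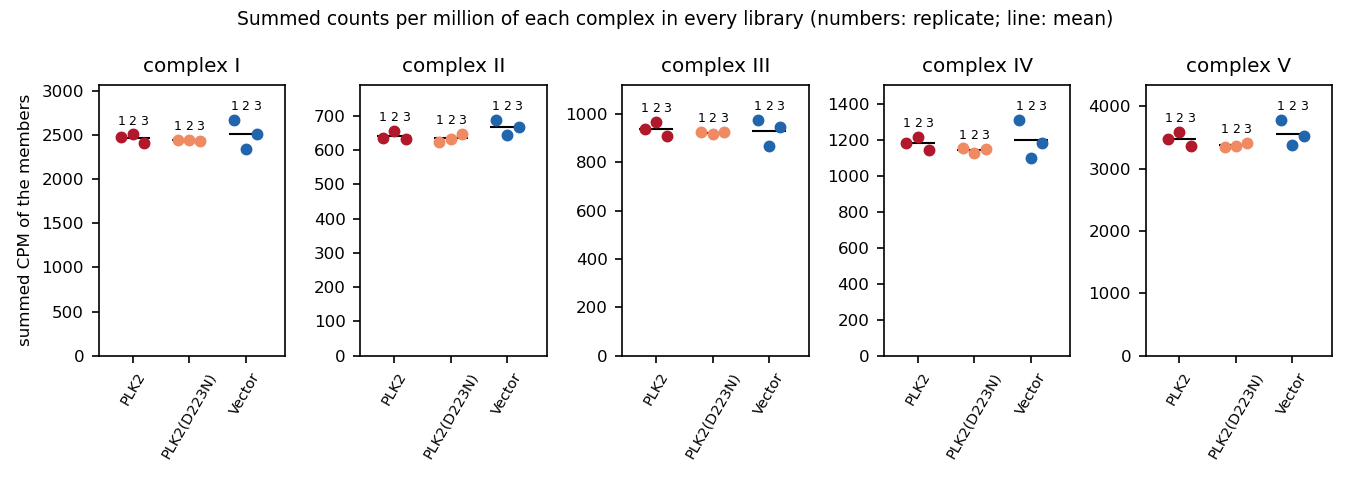
Summed CPM of the members of each complex in every library, on axes from 0; points are libraries (numbered by replicate) and lines group means, with PLK2, PLK2(D223N) and Vector from left to right. The Vector libraries spread widest, for complex IV from 1099 to 1314 CPM, around the values of both PLK2 groups.

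Complex medians of the log2 fold change in PLK2 against Vector were -0.02, -0.04, 0.00, -0.03 and -0.01 for complexes I to V. In PLK2(D223N) against Vector they were -0.03, -0.06, -0.03, -0.08 and -0.04. All 4 complex II genes were below 0 in both comparisons on the CPM scale, though none passed the test, and on log2(TPM + 1) 2 of the 4 were below 0 in PLK2(D223N) against Vector, with a complex median of -0.03 on a scale where the median of all genes was 0.05. In PLK2 against PLK2(D223N) the medians were 0.00, 0.03, 0.02, 0.04 and 0.03, and all 11 tested complex IV genes were above 0, from 0.01 to 0.09, none past the test. On log2(TPM + 1) 6 of the 11 were above 0 and 5 below, with a median of 0.01. The median of all members there was -0.02 and that of all genes -0.05, so relative to all genes the members' median was higher on both scales. NDUFA4, named as a complex I gene but known as a subunit of complex IV, averaged 113 CPM in PLK2, 108 CPM in PLK2(D223N) and 112 CPM in Vector libraries. Its log2 fold changes were 0.01 in PLK2 against Vector, -0.05 in PLK2(D223N) against Vector and 0.06 in PLK2 against PLK2(D223N), each with SE 0.07, and counting it with complex IV gave that complex medians of -0.02, -0.07 and 0.04.

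The members moved together between the Vector libraries, by more than the median difference between groups. The median log2 deviation of the 80 members from their own mean over the 9 libraries was -0.00, 0.04 and -0.03 in PLK2 replicates 1 to 3, -0.00, -0.02 and -0.02 in PLK2(D223N) replicates, and 0.12, -0.09 and 0.02 in Vector replicates. In Vector replicate 1, 70 of the 80 were above 0, in Vector replicate 2 only 8, and in Vector replicate 3 there were 58. For the 12844 other genes tested the median deviation stayed between 0.00 and 0.01 in each library. PLK2 replicates 2 and 3 also differed, with 59 and 16 of the 80 above 0. The median coefficient of variation of a member was 3.78% in PLK2, 2.82% in PLK2(D223N) and 7.84% in Vector libraries, beside 4.46, 4.1 and 8.97% over all genes tested.

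Vector replicate 1 also differed from the rest by base composition. The other genes were split into 4 equal bins of GC content, and 13 members fell in the range of the lowest bin and 14 in that of the highest. In Vector replicate 1 other genes of the lowest bin had a median deviation of -0.23 and those of the highest 0.15, while the members in those ranges stood at 0.07 and 0.20. In Vector replicate 2 the members stood at -0.10 in the lowest range and -0.18 in the highest, against 0.05 and -0.07 for the other genes. The members thus stood above other genes of like GC content in Vector replicate 1 and below them in Vector replicate 2. Their transcripts were short, with a median length of 628 bases against 1084 for the other tested genes with a value, and a median GC content of 49.8% against 49.7%. After removal of the trends with base composition and length in each library, 24 members were above 0 and 56 below in PLK2 against Vector (median -0.03, beside -0.02 over all genes), and 16 above and 64 below in PLK2(D223N) against Vector (-0.05, beside -0.02). Without Vector replicate 1 the median of the members was 0.04 in PLK2 against Vector and 0.02 in PLK2(D223N) against Vector, and without Vector replicate 2 it was -0.08 and -0.10, so the sign of both medians turned on which Vector library was kept.

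**Figure D4:**
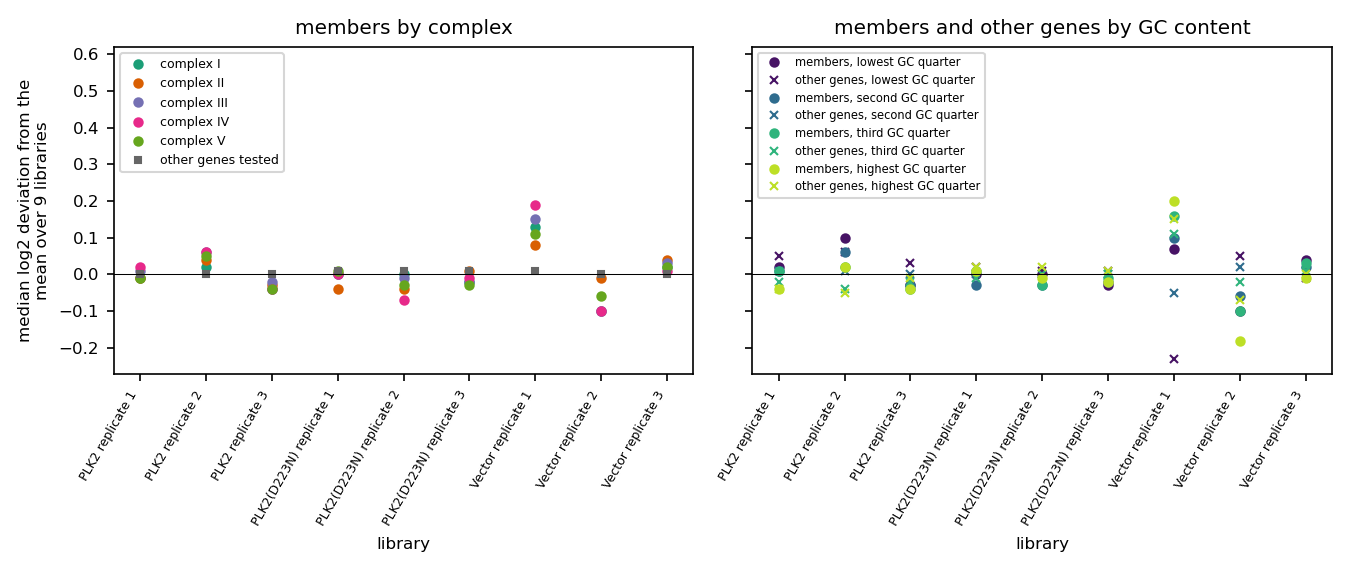
Median log2 deviation of genes from their own mean over 9 libraries, by library. Left, members by complex (circles) and the other genes tested (squares); right, members (circles) and other genes (crosses) in 4 bins of GC content. All 5 complexes are above 0 in Vector replicate 1 (0.08 to 0.19) and below 0 in Vector replicate 2 (-0.10 to -0.01), while the other genes stay at 0.00 to 0.01.

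Members whose groups do not overlap were few. In PLK2 against Vector 1 member had all 3 PLK2 libraries above the Vector libraries (10% of all genes) and 2 had them below (10.1%). In PLK2(D223N) against Vector 2 members lay wholly above (6.66%) and 9 wholly below, which is 11.2% of the members beside 7.21% of all genes. In PLK2 against PLK2(D223N) 4 lay above (11%) and 2 below (9.49%). In 5 of these 6 counts the share of members was below that of all genes, and in the remaining count it was above. The genes with the smallest p in each complex follow.

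In complex I, NDUFC2 (NCBI gene 4718, GRCh38 chromosome 11, 78068304 to 78080219, minus strand in GENCODE 29), an accessory subunit of the membrane arm, had 84.3, 81.1 and 81.6 CPM in PLK2, 84.9, 80.8 and 82.5 CPM in PLK2(D223N) and 98.6, 82.4 and 90.7 CPM in Vector libraries. Vector replicates 1 and 3 were the highest, and replicate 2 lay within the range of the PLK2(D223N) libraries. Its log2 fold change in PLK2 against Vector was -0.14 (SE 0.06, edgeR adjusted p = 0.295). Without Vector replicate 2 it was -0.20 (SE 0.06, adjusted p = 0.0307) and passed the threshold, in a fit where 12.7% of all genes did. The overlapping readthrough entry NDUFC2-KCTD14 had 1.39, 1.86 and 2.26 CPM in PLK2, against 1.86, 2.84 and 2.09 CPM in PLK2(D223N) and 2.32, 2.15 and 1.78 CPM in Vector libraries. With values this low the groups overlapped, and its log2 fold change in PLK2 against PLK2(D223N) was -0.30 (SE 0.22, adjusted p = 0.924).

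NDUFA5, an accessory subunit of the peripheral arm, had 105, 113 and 103 CPM in PLK2, 103, 106 and 95.2 CPM in PLK2(D223N) and 95.6, 95.7 and 106 CPM in Vector libraries. The groups overlapped, and its difference of 0.11 in PLK2 against Vector (SE 0.06, adjusted p = 0.371) was -0.06 once trends with GC content and length were removed; 12 pseudogenes are named for this gene. NDUFA2, of the same arm, stood at 39.3, 38 and 36 CPM in PLK2, 37.3, 34.6 and 36.8 CPM in PLK2(D223N) and 43.7, 37.5 and 39.8 CPM in Vector libraries. All 3 PLK2(D223N) libraries were below all 3 Vector libraries (log2 fold change -0.16, SE 0.07, adjusted p = 0.574). NDUFA9, an accessory subunit near the ubiquinone site, gave 126, 129 and 123 CPM with PLK2, 119, 127 and 123 CPM with PLK2(D223N) and 142, 129 and 130 CPM with Vector. Here too PLK2(D223N) lay below Vector (-0.12, SE 0.06, adjusted p = 0.574). NDUFA12, a late-added peripheral subunit, had 58.8, 67.6 and 57.3 CPM in PLK2, against 56.8, 58.6 and 55.1 CPM in PLK2(D223N) and 59.7, 54.6 and 59.4 CPM in Vector libraries. PLK2 replicate 2 was the highest of the 9, the groups overlapped, and the log2 fold change in PLK2 against PLK2(D223N) was 0.11 (SE 0.07, adjusted p = 0.903).

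In complex II, SDHA, which oxidises succinate, had 171, 173 and 171 CPM in PLK2, 178, 180 and 186 CPM in PLK2(D223N) and 194, 178 and 185 CPM in Vector libraries. The PLK2 libraries lay below the other 6, without overlap, while PLK2(D223N) and Vector overlapped. The log2 fold change was -0.11 in PLK2 against Vector (SE 0.05, adjusted p = 0.292) and -0.08 in PLK2 against PLK2(D223N) (SE 0.05, adjusted p = 0.906), and 3 pseudogenes are named for SDHA. SDHD had 161, 168 and 159 CPM in PLK2, 149, 154 and 159 CPM in PLK2(D223N) and 172, 161 and 168 CPM in Vector libraries. All 3 PLK2(D223N) libraries lay below all 3 Vector libraries, with PLK2 across both (-0.12, SE 0.05, adjusted p = 0.574). SDHB, the iron-sulfur subunit between them, averaged 106, 105 and 107 CPM in PLK2, PLK2(D223N) and Vector libraries.

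In complex III, the Rieske iron-sulfur protein UQCRFS1 (NCBI gene 7386, chromosome 19, 29205321 to 29213541, minus strand) had 98, 97.1 and 99.4 CPM in PLK2, 97.7, 100 and 99.7 CPM in PLK2(D223N) and 113, 101 and 108 CPM in Vector libraries. All 6 libraries with either PLK2 form were below all 3 Vector libraries. The log2 fold change was -0.13 in PLK2 against Vector (SE 0.05, adjusted p = 0.263; 95% interval -0.24 to -0.01) and -0.11 in PLK2(D223N) against Vector (SE 0.05, adjusted p = 0.574). Without Vector replicate 2 the PLK2 against Vector value was -0.17 (SE 0.06, adjusted p = 0.0436), again in the fit that called 12.7% of all genes.

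UQCRB stood at 180, 183 and 173 CPM in PLK2, 172, 171 and 175 CPM in PLK2(D223N) and 150, 163 and 174 CPM in Vector libraries. Vector replicate 1 was the lowest and Vector replicate 3 lay among the PLK2 libraries. Its log2 fold change was 0.14 in PLK2 against Vector (SE 0.06, adjusted p = 0.256), 0.09 in PLK2(D223N) against Vector (SE 0.06, adjusted p = 0.604) and 0.05 in PLK2 against PLK2(D223N) (SE 0.06, adjusted p = 0.97). After removal of the trends with base composition and length, the values against Vector were -0.01 and -0.02. UQCRQ, a small accessory subunit, had 47.4, 47.9 and 46.1 CPM in PLK2, against 46.6, 43.6 and 44.1 CPM in PLK2(D223N) and 50.9, 38.6 and 47.5 CPM in Vector libraries. The Vector libraries held both its highest and its lowest value, and the log2 fold change in PLK2 against PLK2(D223N) was 0.07 (SE 0.08, adjusted p = 0.965).

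In complex IV, COX6A1 had 150, 150 and 138 CPM in PLK2, 143, 137 and 149 CPM in PLK2(D223N) and 174, 145 and 151 CPM in Vector libraries. Vector replicate 1 stood apart from the other 8, which overlapped. The log2 fold change was -0.10 in PLK2 against Vector (SE 0.07, adjusted p = 0.439) and -0.13 in PLK2(D223N) against Vector (SE 0.07, adjusted p = 0.577). COX7B had 106, 110 and 105 CPM in PLK2, 107, 106 and 104 CPM in PLK2(D223N) and 96.2, 96.4 and 108 CPM in Vector libraries. Vector replicates 1 and 2 were the lowest, while replicate 3 lay among the others. Its 0.09 in PLK2 against Vector (SE 0.06, adjusted p = 0.412) was -0.03 after trends in GC content and length were removed.

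COX7A2L, known for its part in joining complexes III and IV into supercomplexes, had 77.8, 78.8 and 74.6 CPM in PLK2, 72.6, 71.5 and 72.9 CPM in PLK2(D223N) and 91.1, 71.8 and 76.2 CPM in Vector libraries. The PLK2 libraries were above the PLK2(D223N) libraries without overlap (0.09, SE 0.07, adjusted p = 0.931), and Vector overlapped both. In PLK2(D223N) against Vector the log2 fold change was -0.14 (SE 0.07, adjusted p = 0.578). COX6C had 80.6, 94.9 and 86.1 CPM in PLK2, against 85.8, 81.3 and 80.5 CPM in PLK2(D223N) and 91.5, 85.3 and 89.3 CPM in Vector libraries. The groups overlapped (PLK2 against PLK2(D223N) 0.08, SE 0.06, adjusted p = 0.931), and 17 pseudogenes are named for COX6C, the highest number of any member; sharing of reads with them was not measured. COX4I1, the common form of the largest nuclear-encoded subunit, averaged 227 CPM in PLK2, 221 CPM in PLK2(D223N) and 234 CPM in Vector libraries.

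In complex V, ATP5F1E (NCBI gene 514, chromosome 20, 59025467 to 59032382, minus strand), the epsilon subunit in the central stalk of the F1 part, had 62.5, 65.6 and 57 CPM in PLK2, 63.2, 58 and 60.7 CPM in PLK2(D223N) and 56.1, 52.1 and 56.4 CPM in Vector libraries. All 6 libraries with either PLK2 form were above all 3 Vector libraries, by a margin of less than 1 CPM between PLK2 replicate 3 and Vector replicate 3. This gene had the smallest adjusted p of the 80 members: its log2 fold change was 0.17 in PLK2 against Vector (SE 0.06, adjusted p = 0.231) and 0.14 in PLK2(D223N) against Vector (SE 0.06, adjusted p = 0.574). ATP5F1B, the catalytic beta subunit, had 960, 983 and 928 CPM in PLK2, 916, 925 and 969 CPM in PLK2(D223N) and 1115, 971 and 980 CPM in Vector libraries. It pointed the other way, with PLK2(D223N) just below Vector (-0.13, SE 0.06, adjusted p = 0.574) and PLK2 overlapping Vector (-0.09, SE 0.06, adjusted p = 0.401). Subunits of the same F1 part thus had estimates of opposite sign, none of which passed the test.

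ATP5PB (NCBI gene 515, chromosome 1, 111448864 to 111462773, plus strand), the b subunit of the peripheral stalk, had 419, 436 and 396 CPM in PLK2, 374, 390 and 393 CPM in PLK2(D223N) and 377, 399 and 411 CPM in Vector libraries. The PLK2 libraries were above the PLK2(D223N) libraries, closely at the edge, and Vector lay across both. In PLK2 against PLK2(D223N) the log2 fold change was 0.11 (SE 0.05, adjusted p = 0.846). Fitted to those 6 libraries alone, without the more widely spread Vector group, the same 0.11 had an SE of 0.03 and an adjusted p of 0.0139, in a fit that called 3.92% of all genes. This was the only member called there, a share below that background, and 7 pseudogenes are named for it. ATP5F1C, the gamma subunit of the rotor, averaged 218 ± 6.54 CPM in PLK2, against 204 ± 3.83 CPM in PLK2(D223N) and 218 ± 7.66 CPM in Vector libraries (SD, n = 3 each). PLK2 exceeded PLK2(D223N) without overlap (0.09, SE 0.05, adjusted p = 0.866), and PLK2 and Vector were level. ATP5IF1, the inhibitor that holds back ATP hydrolysis, averaged 97.4 CPM in PLK2, 98.2 CPM in PLK2(D223N) and 102 CPM in Vector libraries, and the 95% interval of its log2 fold change in PLK2 against Vector ran from -0.17 to 0.05.

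The promoters of the members were also read for shared sequence, and no link to the differences between libraries was tested. Windows of 250 bases before to 50 after the annotated start were available from RefSeq (GRCh38.p14) for 70 of the 85 member genes. A match to GCGC, any base and then TGCGC, a core pattern of nuclear respiratory factor 1, was present on either strand for 17 of the 70 (24.3%), beside 13.2% of other tested genes with a window and 5.78% of all windows. AAGATGGC, a YY1 pattern, was found for 12 (17.1%), beside 6.26 and 2.89%. CCGGAAG, a pattern of the ETS factors to which GABPA belongs, was found for 21 (30%), beside 22.3 and 10.3%. The TATA pattern TATAAA was found for 6 (8.57%), beside 8.64 and 11.5%. The 70 include members too low to test, among them COX8C with a match to the first pattern, whereas the other genes were all tested. None of the 4 patterns contains another. These shares are descriptions of letters in a window and not of binding. Stretches from 4 genes named above are shown 5′ to 3′ on the gene's strand, with the match in capitals.
SDHD, nuclear respiratory factor 1 pattern, chr11:112086738-112086797 plus strand: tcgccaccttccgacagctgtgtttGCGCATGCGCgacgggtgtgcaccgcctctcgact
UQCRFS1, nuclear respiratory factor 1 pattern, chr19:29213148-29213207 minus strand: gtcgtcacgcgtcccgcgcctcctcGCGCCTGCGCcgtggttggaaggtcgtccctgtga
ATP5PB, YY1 pattern read on the opposite strand, chr1:111449437-111449493 plus strand: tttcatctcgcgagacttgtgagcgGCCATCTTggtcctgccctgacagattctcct
COX6A1, ETS pattern read on the opposite strand, chr12:120438072-120438128 plus strand: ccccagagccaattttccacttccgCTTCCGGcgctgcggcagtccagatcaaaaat
The match began 110 bases before the start in SDHD, 31 before it in UQCRFS1, 16 before it in COX6A1 and 2 before it in ATP5PB.

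RNA of transcription factors known for these patterns was also measured, and no link between their levels and the members was tested. NRF1, nuclear respiratory factor 1, averaged 26.9 CPM in PLK2, 25.8 CPM in PLK2(D223N) and 27.6 CPM in Vector libraries, and YY1 211, 209 and 216 CPM in the same order. GABPA had 170, 178 and 170 CPM in PLK2, 160, 162 and 162 CPM in PLK2(D223N) and 129, 163 and 150 CPM in Vector libraries. The PLK2 libraries were the highest of the 9, and Vector replicate 1 was far below the rest. Its log2 fold change in PLK2 against Vector was 0.23 (SE 0.07, adjusted p = 0.154), which became 0.14 (adjusted p = 0.0346) without Vector replicate 1 and 0.30 (adjusted p = 0.00437) without Vector replicate 2, in fits that called 363 and 1656 genes in all. PPARGC1A, the coactivator PGC-1α, had 1 count in all, in PLK2(D223N) replicate 1, and was not tested.

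Other genes of the pathway were read in 9 lists: assembly factors of complex I (18 tested), of complexes II and III (10), of complex IV (25) and of complex V (5), electron carriers and related subunits (15), regulators of mitochondrial biogenesis (15 of 16), small mitochondrial ribosomal proteins (28), the tricarboxylic acid cycle (17) and mitochondrial import with its chaperones (21). No gene of any list passed the test in any comparison. In PLK2 against Vector the list medians ran from -0.09 (assembly factors of complexes II and III) to -0.01 (assembly factors of complex V), beside -0.00 over all genes. In PLK2(D223N) against Vector they ran from -0.08 to 0.02, and in PLK2 against PLK2(D223N) from -0.04 to 0.03. At an unadjusted p below 0.05 in PLK2 against Vector, the assembly factors of complex IV had 4 of 25 higher and 0 lower, the small mitochondrial ribosomal proteins 1 of 28 higher and 3 lower, the regulators 1 of 15 higher and 2 lower, and the assembly factors of complexes II and III 0 of 10 higher and 2 lower, while each of the other 5 lists held at most 2 such genes, beside 16.4% of all genes in either direction.

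SUCLA2, a subunit of succinyl-CoA synthetase, averaged 93.3 CPM in PLK2, 89 CPM in PLK2(D223N) and 79.8 CPM in Vector libraries. Its log2 fold change was 0.23 in PLK2 against Vector (SE 0.07, adjusted p = 0.168) and 0.16 in PLK2(D223N) against Vector (SE 0.07, adjusted p = 0.574). MRPS6, of the small mitochondrial ribosomal subunit, averaged 33.4, 33.9 and 39.2 CPM in the same order. It lay lower, at -0.23 in PLK2 against Vector (SE 0.08, adjusted p = 0.173) and -0.21 in PLK2(D223N) against Vector (SE 0.07, adjusted p = 0.574). TWNK, the mitochondrial DNA helicase, had -0.16 in PLK2 against Vector (SE 0.06, adjusted p = 0.222), IDH2, the mitochondrial NADP-dependent isocitrate dehydrogenase, -0.18 (SE 0.07, adjusted p = 0.236), and COX20, an assembly factor of complex IV, 0.17 (SE 0.07, adjusted p = 0.246). Of the 18 list genes picked by smallest p in PLK2 against Vector, only these 5 and GABPA passed without Vector replicate 2. SDHAF1, an assembly factor of complex II at -0.35 in the main fit (SE 0.14, adjusted p = 0.235), was among those that did not. Without that library the 5 stood at 0.30 (adjusted p = 0.00709) for SUCLA2, -0.30 (adjusted p = 0.0125) for MRPS6, -0.19 (adjusted p = 0.0494) for TWNK, -0.24 (adjusted p = 0.0362) for IDH2 and 0.23 (adjusted p = 0.036) for COX20, in the fit that called 12.7% of all genes. MRPS6 also passed there in PLK2(D223N) against Vector, at -0.28 (adjusted p = 0.0443), where 347 genes did.

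CYCS, the electron carrier cytochrome c, averaged 573 CPM in PLK2, 552 CPM in PLK2(D223N) and 535 CPM in Vector libraries (PLK2 against Vector 0.10, SE 0.05, adjusted p = 0.356). CYC1 and NDUFAB1, subunits of complexes III and I that the symbol patterns miss, were at -0.06 and -0.11 in PLK2 against Vector (SE 0.07 each). Between the 2 PLK2 forms the smallest p of any list gene was that of FMC1, an assembly factor of complex V, at 10.9 CPM in PLK2, against 9.18 CPM in PLK2(D223N) libraries (0.24, SE 0.11, adjusted p = 0.79). POLRMT, the mitochondrial RNA polymerase, averaged 46 CPM in PLK2, against 51.6 CPM in PLK2(D223N) libraries, without overlap (-0.17, SE 0.08, adjusted p = 0.852). Fitted to those 6 libraries alone it passed, at -0.17 (SE 0.05, adjusted p = 0.0389), where 3.92% of all genes did. Among the remaining genes with the smallest p in each list, adjusted p ran up to 0.405 in PLK2 against Vector, 0.633 in PLK2(D223N) against Vector and 0.943 between the forms.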

How the data were processed

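Per the labels' protocols, oligo(dT) beads enriched mRNA before fragmentation. The submitters' processing notes list Bowtie2, RSEM 1.3.1, DESeq2 1.4.5 and build GRCh38.p13. What each tool did, the gene annotation and the handling of strand are not stated there, so reads of a gene and an antisense partner may not be separated. The table deposited by the authors holds estimated counts and TPM per gene and library, both made by the authors; 18 further columns of FPKM and scaled counts were not used. Groups came from the sample labels, and a Vector library whose title has transposed letters was matched by its number.

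Estimated counts were rounded, genes kept by filterByExpr (12924), libraries scaled by TMM, and all 9 libraries fitted with group as the only term in edgeR 4.0.16 (robust quasi-likelihood, two-sided, Benjamini-Hochberg adjustment over all genes tested, called below 0.05). CPM is TMM-scaled, and values are mean ± SD. P-values rest on the spread between libraries within groups, estimated jointly over all 9 libraries. Those between the PLK2 forms thus also carry the spread of the Vector libraries. Lengths, GC content and coordinates came from GENCODE 29 (GRCh38), and promoters from RefSeq (GRCh38.p14). At least 1 pseudogene is named in GENCODE for 45 of the 85 members, and reads could be split between such copies or with overlapping readthrough entries.

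The members, lists and tests were chosen with earlier results of these data known. Genes given with statistics were called members and, per comparison, the 2 with the smallest p in each complex (1 in complex II). In each list the 2 with the smallest p were also picked, 18 list genes per comparison. Only some of these list genes are named above, including each that passed in an alternative fit. Levels were given for the highest and lowest gene of each complex, isoform sets, NDUFA4, ATP5IF1 and untested members. SDHB, COX4I1, CYC1, NDUFAB1, NRF1, YY1 and PPARGC1A were added for context. The alternatives were DESeq2 1.42.0 size factors or Wald test, other filters, a replicate block, the 6 libraries compared, PLK2 removed before scaling, removal of trends with base composition and length, limma 3.58.1 on log2(TPM + 1), and each library left out. Counting NDUFA4 with complex IV regrouped the main fit and is not among these alternatives. R 4.3.3 and Python 3.11.15 were used. Only the main edgeR fit was run on simulated counts, with the outcome not given here. Those counts had the same spread in all groups and larger changes than nearly all members.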

Additional observations from a re-analysis of the deposited data

How the results depend on the processing

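Over 18 alternatives, 9 of which leave out a library, 1440 of 1458 values of picked genes kept their direction and side of the threshold, 12 newly passed it, 0 fell short of it and 6 changed sign. The count covers all 81 picked results, including list genes not named above. None of them passed in the main fit (lowest edgeR adjusted p = 0.154), so none could fall short. A gene that stayed uncalled with the same sign counted as kept. The sign changes came after trends with base composition and length were removed (PLK2 against Vector: NDUFA5 -0.06, UQCRB -0.01, COX7B -0.03; PLK2(D223N) against Vector: UQCRB -0.02, GABPA -0.00) and with limma on TPM (PLK2 against PLK2(D223N): UQCRB -0.00); the cause was not tested. No member was called except 1 in PLK2 against PLK2(D223N) with the 6 libraries alone and 2 in PLK2 against Vector without Vector replicate 2 (range 0 to 2 when leaving out a library; 0 to 0 in the other comparisons). The members' median ranged from -0.08 to 0.04, from -0.10 to 0.02 and from 0.00 to 0.04 in PLK2 against Vector, PLK2(D223N) against Vector and PLK2 against PLK2(D223N) when leaving out a library, and was -0.02 in the last with limma on TPM, where the median of all genes was -0.05. Counts of all called genes moved more. In PLK2 against Vector 66 became 143 with the DESeq2 Wald test, 136 without the filter, 23 with the 6 libraries, 19 with limma on TPM and 289 (197 higher, against 62 of 66) once trends with base composition and length were removed; leaving out a library gave 13 to 1656, with 363 without Vector replicate 1 and 1656 without Vector replicate 2. In PLK2(D223N) against Vector 3 became 9 with the Wald test, 5 without the filter and 5 with trends removed, and 2 to 347 when leaving out a library (347 without Vector replicate 2). Between the forms 21 became 37 with the Wald test, 35 without the filter, 502 with the 6 libraries, 70 with trends removed and 11 (8 higher, against 20 of 21) with limma on TPM, and 9 to 317 when leaving out a library (317 without Vector replicate 1). In each edgeR fit the spread was pooled over all groups kept, also where a group kept 2 libraries. The labels name no pairing by replicate number. Deviations of same-numbered libraries correlated at -0.11 to 0.14, and those of differently numbered libraries at -0.22 to 0.12. These values do not settle whether same-numbered libraries shared a batch. The fit with a replicate block called 76, 4 and 20 genes and 0 members. Depth limits the untested members and readthrough entries.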
